A study of Schizosaccharomyces pombe with 10 samples.

Results

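The left end of chromosome II of the fission yeast Schizosaccharomyces pombe was described over its first 100 kb. Its members were all genes of the count table on chromosome II whose last exon base lay at or below position 100000 (build ASM294v2). This gave 45 of the 7268 annotated genes, namely 31 coding genes, 4 pseudogenes and 10 non-coding RNAs. Poly(A)-selected RNA from 5 strains, with 2 libraries each, was sequenced after growth in rich 2xYES medium at 30 °C. The cph1Δ strain (YYX46sp) and the cph2Δ strain (YYX47sp) carried KANMX in place of cph1 or cph2. Both came from wt (YYX43sp), an h- strain labelled dy1779 with his3 d1, ura4-d18, leu1-32 and ade6-m216, alleles that both deletion strains shared. The set2Δ strain (YBL686sp) carried a KANMX-marked null allele of set2 and came from wt2 (YBL685sp), whose label gives only the mating type h-. Each deletion is thus represented by 1 strain. The labels do not say whether a strain's 2 libraries are separate cultures, so p-values measure only the spread between these libraries.

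Fission yeast chromosomes end in telomere repeats bound by the shelterin complex, and the sequences next to them are packed into heterochromatin marked by methylated histone H3. Farther in lies a condensed region, the knob, which forms with the shugoshin protein Sgo2 and depends on the histone H3 methyltransferase Set2. Set2 travels with elongating RNA polymerase II, and its mark is read by Clr6 complex II, the counterpart of budding yeast Rpd3S, a histone deacetylase whose PHD finger subunits are Cph1 and Cph2. Genes near the ends are mostly silent or weakly transcribed in rich medium, and many encode transporters and enzymes for the use of alternative nutrients. The comparisons ask how transcripts near an end differ when Set2 or either PHD finger subunit is missing.

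Library totals lay between 9711537 and 13051467 assigned counts, and the 45 genes took from 0.0125% to 0.151% of them. In the deletion strains cph1, cph2 and set2 stood at 4.33%, 3.77% and 7.97% of their parent's level, and ura4 had 0 counts in all 6 libraries of cph1Δ, cph2Δ and wt, so these genes gave no reason to doubt a label. Replicates differed by more than counting error, and cph1Δ replicate 2 stood apart with the highest scaling factor (1.25, against 0.845 to 1.02 in the other 9 libraries). Levels are given as CPM, counts scaled to a common library size with trimmed-mean factors, with replicate 1 before replicate 2. Log2 fold changes carry an approximate standard error, the absolute log2 fold change divided by the square root of the test's F statistic. It is rough where counts are near 0. Adjusted p-values come from edgeR's quasi-likelihood test, corrected by the Benjamini-Hochberg method across the 5067 genes with enough counts and called at 0.05. Of the 45 genes, 30 could be tested. The other 15 had 0 counts in all libraries (6 genes) or at most 25 counts in any library (9 genes).

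Deletion of set2 was followed by higher transcript levels in genes starting between 7.6 and 87.7 kb from the end. Among 30 tested genes, 21 were higher in set2Δ than in wt2 and 0 were lower, where 4.32% of all tested genes were called higher and 0.572% lower. The called genes rose by 2.96 or more on the log2 scale, and they included transporter, asparaginase, enolase and transcription factor genes. Summed over the 45 genes, set2Δ had 1490 and 1160 CPM, against 189 and 127 CPM in wt2, an 8.38-fold difference. Without cmt2, an abundant gene that varied between replicates, the sums were 970 and 988 CPM in set2Δ, against 109 and 108 CPM in wt2, 9.03-fold apart. The median log2 fold change over the tested genes was 4.21, against 0.03 over all tested genes, or 4.13 with the 3 genes at 0 counts in wt2 set at their lower bounds. In such bulk RNA, more RNA per cell and more cells with the transcript cannot be told apart.

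The filter on low counts bears on this count. Of the 30 tested genes, 5 (ftm6, SPBC1348.05, SPNCRNA.1303, SPBPB21E7.06 and SPBPB21E7.08) passed it only with the set2Δ libraries included, so that their standing high there is in part set by the filter. The 15 untested genes are not part of the count. On the 8 other libraries alone 25 of the 45 genes passed, and 18 of these were higher in set2Δ, where 4.12% of all genes passing that filter were. The median log2 fold change of these 25 genes was 4.06, against 0.03 over all genes passing that filter. Without set2Δ replicate 1 or 2 the median over the segment's tested genes was 4.10 or 4.26, against 0.02 or 0.03 over all tested genes. Without wt2 replicate 1 or 2 it was 4.91 or 4.13, against 0.05 or 0.04. With any of these libraries left out fewer genes were called, in the segment and over all tested genes. Both set2Δ libraries stood above the 8 others for 21 of the 25 genes that passed without set2Δ, against 4.72% of all genes passing that filter, and for 25 of the 30 tested genes, against 5.13% of all tested genes. Against wt2 alone, both set2Δ libraries were above both wt2 libraries for 28 genes and below for 0, against 31.3% and 26.8% of all tested genes. Exceptions to the rule of standing above all 8, named after their values were seen, were SPBPB8B6.05c, fex2, cmt2, SPBPB10D8.04c and the non-coding RNA SPNCRNA.1303.

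**Figure D1:**
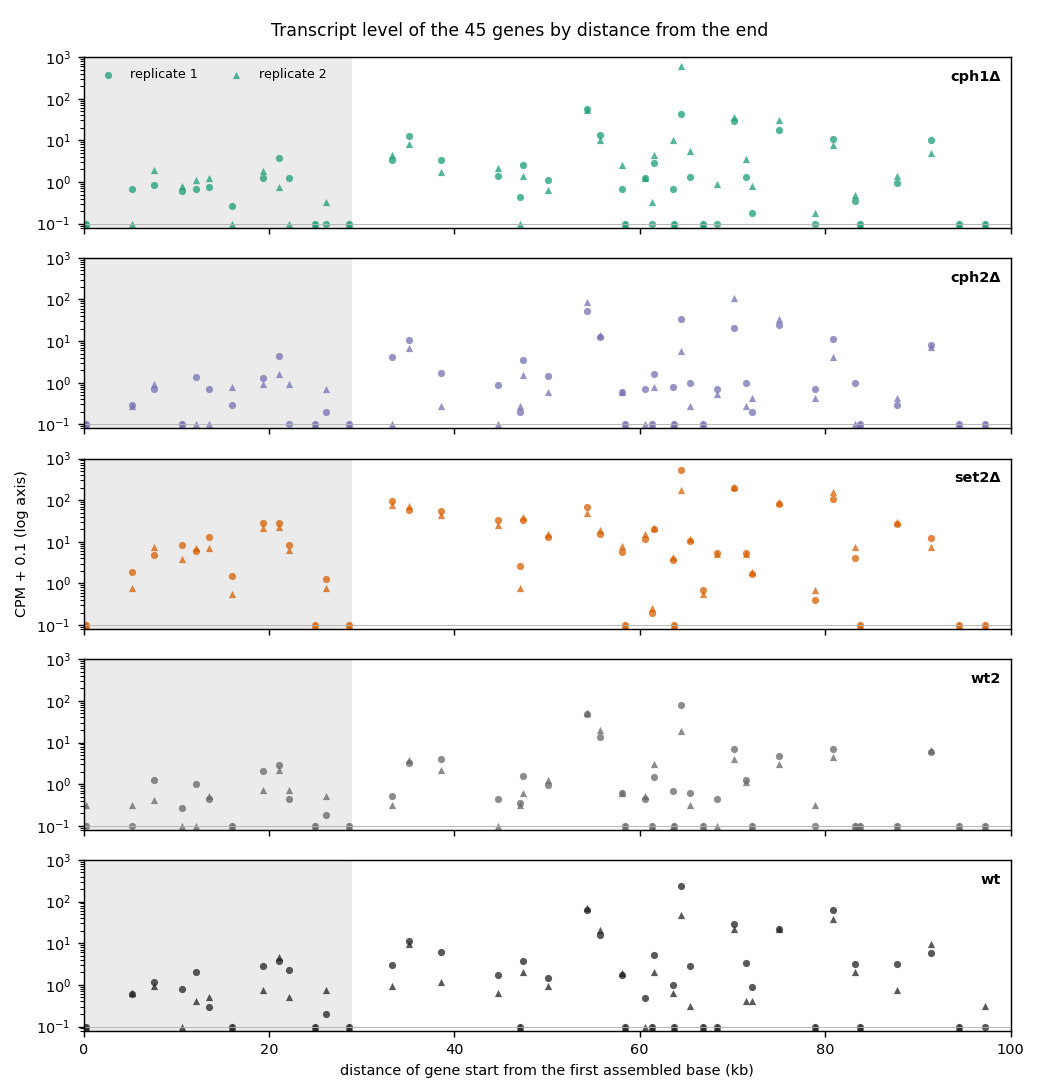
Level of each of the 45 genes (CPM + 0.1, log axis) against the distance of its start from the first assembled base (kb), with 1 panel per strain. Circles are replicate 1, triangles replicate 2, and the thin line marks 0 counts. Grey shading marks the genes from the end to 28.8 kb, whose RefSeq spans lie wholly within near-identical copies. Points of set2Δ lie mostly above those of the other strains, except near 55 kb, where SPBPB8B6.05c and fex2 stand at like levels in all 5 panels.

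Distance from the end was counted from the first base of the assembly, which need not be the telomere. In the first 25 kb (11 genes) the summed level was 99.6 and 76.1 CPM in set2Δ, against 7.83 and 4.49 CPM in wt2, 14.3-fold apart. Between 25 and 50 kb (8 genes) it was 278 and 255 CPM in set2Δ, against 9.68 and 7.21 CPM in wt2, or 31.5-fold. The 17 genes between 50 and 75 kb summed to 881 and 532 CPM in set2Δ, against 155 and 101 CPM in wt2, 5.52-fold apart. This stretch holds cmt2 and the level genes SPBPB8B6.05c and fex2, which make up much of its sum in wt2. From 75 to 100 kb (9 genes) the sums were 232 and 296 CPM in set2Δ, against 17.0 and 13.9 CPM in wt2, a 17.1-fold difference. In every stretch both set2Δ libraries stood above both wt2 libraries. The called genes numbered 5 of 7 tested, 5 of 5, 7 of 13 and 4 of 5 in the 4 stretches from the end inward, where 4.32% of all tested genes were called higher. The first stretch includes ftm6 and SPBC1348.05, which passed the filter only with the set2Δ libraries. The stretch from 50 to 75 kb likewise includes SPNCRNA.1303, SPBPB21E7.06 and SPBPB21E7.08. Their being tested thus rests in part on their level in set2Δ.

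**Figure D2:**
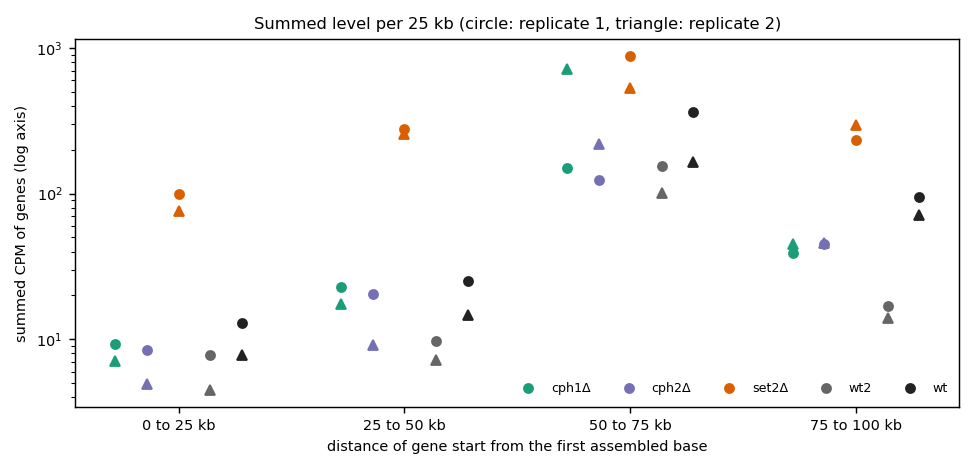
Summed level of the genes in each 25 kb stretch (CPM, log axis) by distance of their start from the first assembled base. Each strain has 2 points, a circle for replicate 1 and a triangle for replicate 2; set2Δ stands above wt2 in all 4 stretches, by 5.52-fold to 31.5-fold in the group means.

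The 13 genes nearest the end lie in sequence that other chromosome ends share. All 13 genes, as far as prl11 at 28.8 kb, were searched in the RefSeq genome (ASM294v3). Their whole RefSeq spans were covered by a second copy of at least 99.48% identity. The spans counted here can be longer than those in RefSeq, and the bases beyond were not compared. The closest copy lay at the right end of chromosome II for 7 of them, at the right end of chromosome I for ftm6, and at the left end of chromosome I for 5. The first gene with no such copy was SPBC1348.11 at 33.2 kb. Reads that map to several places were not counted, so these 13 genes are undercounted to an unknown degree, and a gene at 0 here may still be transcribed. The same holds farther in for fex2, SPBPB10D8.04c, SPBPB10D8.05c and SPBPB10D8.06c, which have such copies over part or all of their RefSeq spans. Genes whose RefSeq span is identical to its copy, such as ftm5 with 228 counts over the 10 libraries, still had counts. In ftm5 the RefSeq span is 1478 bases and the counted exon length 1825 bases. The origin of these counts was not tested. Of the 13 genes, 7 could be tested and 5 were higher in set2Δ, where 4.32% of all tested genes were called higher. Among these 5, ftm6 and SPBC1348.05 passed the filter on low counts only with the set2Δ libraries included. Over the whole segment, 27 genes had no copy at 98% identity or more over at least 100 bases. Of their 21 tested members 16 were higher in set2Δ, against the same 4.32%. Of these 16, SPBPB21E7.08 passed the filter only with the set2Δ libraries. Below that limit, SPBPB21E7.09 had a copy at 96.28% identity over 1238 of its 1330 RefSeq bases, with 2553 bases counted. SPBPB8B6.05c had one at 95.34% over 1246 bases.

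Gene by gene from the end, SPBC1348.15 (304 to 693, minus strand, 1 exon), an uncharacterized coding gene and the one nearest the end, had 2 counts in wt2 replicate 2 and 0 in the 9 other libraries. Next inward, SPBC1348.01 (5224 to 6829) was untested, at 1.78 and 0.688 CPM in set2Δ, against 0 and 0.209 CPM in wt2. The genes ftm5 (SPBC1348.02, 7633 to 9457, plus strand, 1 exon) and ftm6 (SPBC1348.03, 10569 to 11351, plus strand, 1 exon) encode proteins with transmembrane helices. Transcripts of ftm5 stood at 4.65 and 7.41 CPM in set2Δ, against 1.18 and 0.314 CPM in wt2 (log2 fold change 2.96 ± 0.73, adjusted p = 0.039). Its other libraries had 0.748 and 1.84 CPM in cph1Δ and 0.596 and 0.847 CPM in cph2Δ, against 1.09 and 0.844 CPM in wt. For ftm6 the level was 8.4 and 3.74 CPM in set2Δ, against 0.168 and 0 CPM in wt2, and since wt2 had only 2 counts the ratio was 61.9-fold with a 95% counting interval of 16.8 to 517 (adjusted p = 0.0247). Both set2Δ libraries of these genes stood above every other library, but ftm6 passed the filter on low counts only with the set2Δ libraries included. In ftm6, cph2Δ had 0 counts in both libraries, beside 0.499 and 0.719 CPM in cph1Δ, against 0.693 and 0 CPM in wt.

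The transporter gene SPBC1348.05 (13572 to 15378, plus strand, 1 exon) had 12.6 and 7.18 CPM in set2Δ, against 0.337 and 0.418 CPM in wt2 (log2 fold change 4.68 ± 0.90, adjusted p = 0.0125). Its level was 0.665 and 1.12 CPM in cph1Δ and 0.596 and 0 CPM in cph2Δ, against 0.198 and 0.422 CPM in wt. The uncharacterized gene SPBC1348.07 (19395 to 20606, plus strand, 2 exons) had 28.8 and 21.5 CPM in set2Δ, against 2.02 and 0.627 CPM in wt2 (log2 fold change 4.20 ± 0.69, adjusted p = 0.00673). For both genes the 2 set2Δ libraries stood above the 8 others, but SPBC1348.05 passed the filter on low counts only with the set2Δ libraries included. In the other strains SPBC1348.07 stood at 1.16 and 1.76 CPM in cph1Δ and 1.19 and 0.847 CPM in cph2Δ, against 2.77 and 0.633 CPM in wt. The non-coding RNA SPNCRNA.287 (21060 to 21754, minus strand, 1 exon) had 27.9 and 22 CPM in set2Δ, against 2.86 and 2.09 CPM in wt2 (log2 fold change 3.32 ± 0.69, adjusted p = 0.0179). It had 3.66 and 0.639 CPM in cph1Δ and 4.37 and 1.53 CPM in cph2Δ, against 3.56 and 4.64 CPM in wt. The methyltransferase gene SPBC1348.04 (5.93 and 6.88 CPM in set2Δ, against 0.926 and 0 CPM in wt2) and the glycoprotein gene SPBC1348.08c (8.30 and 6.26 CPM in set2Δ, against 0.337 and 0.627 CPM in wt2) did not pass, with adjusted p = 0.139 and 0.113. Neither of these overlapped between set2Δ and wt2. Among the remaining genes up to 28.8 kb, SPBC1348.06c and SPBC1348.10c had too few counts to be tested, and the dehydrogenase gene SPBC1348.09 and prl11 had 0 counts in all libraries.

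Transcription factor genes lay beyond the copied stretch, farther from the end. SPBC1348.12 (35112 to 36589, plus strand, 5 exons) encodes a DNA-binding transcription factor and stood at 58.9 and 70.4 CPM in set2Δ, against 3.2 and 3.76 CPM in wt2 (log2 fold change 4.22 ± 0.35, adjusted p = 0.000104). The remaining strains had 12.3 and 7.91 CPM in cph1Δ and 10.6 and 6.78 CPM in cph2Δ, against 10.9 and 9.7 CPM in wt, so all 8 libraries without the set2 deletion lay between 3.20 and 12.3 CPM. The gene grt1 (SPBPB8B6.04c, 47369 to 51220, minus strand, 3 exons), for the transcription factor Grt1, had 33.4 and 39 CPM in set2Δ, against 1.51 and 0.523 CPM in wt2 (log2 fold change 5.10 ± 0.62, adjusted p = 0.00106). Its level was 2.41 and 1.28 CPM in cph1Δ and 3.38 and 1.44 CPM in cph2Δ, against 3.66 and 1.9 CPM in wt. Both factor genes were higher in set2Δ in all 9 alternative settings tried. Exons of grt1 overlap fah1 and SPNCRNA.1301 on the opposite strand, and reads were counted without strand. Its value is thus uncertain, and too low where reads at shared positions were left out.

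Transporter genes were found along the segment. The hexose transporter gene ght7 (SPBC1348.14c, 38514 to 40277, minus strand, 1 exon), of the family that imports glucose and related sugars, had 56.3 and 44.2 CPM in set2Δ, against 3.87 and 2.09 CPM in wt2 (log2 fold change 4.06 ± 0.77, adjusted p = 0.0119). Elsewhere ght7 stood at 3.24 and 1.68 CPM in cph1Δ and 1.59 and 0.169 CPM in cph2Δ, against 5.94 and 1.05 CPM in wt. Farther in, SPBPB8B6.02c (44694 to 46836, minus strand, 1 exon), annotated as a urea transporter, stood at 32.6 and 24.8 CPM in set2Δ, against 0.337 and 0 CPM in wt2 (log2 fold change 7.21 ± 1.06, adjusted p = 0.00362). That gene was near its detection limit outside set2Δ, with 1.33 and 2.08 CPM in cph1Δ and 0.794 and 0 CPM in cph2Δ, against 1.58 and 0.527 CPM in wt. At 80.9 kb SPBPB10D8.01 (80899 to 83357, plus strand, 1 exon), a cysteine transporter gene, had 109 and 158 CPM in set2Δ, against 6.73 and 4.29 CPM in wt2 (log2 fold change 4.59 ± 0.46, adjusted p = 0.000291). It is the only gene of the segment called in all 4 comparisons of a strain with wt or wt2. The transporter gene SPBPB10D8.04c (91376 to 92863) did not differ beyond the spread, with 12.2 and 7.56 CPM in set2Δ, against 5.72 and 6.48 CPM in wt2 (log2 fold change 0.69 ± 0.45, adjusted p = 0.471). Near-identical copies cover 82.5% of its bases, the longest at 100% identity in the adjacent SPBPB10D8.05c, which had 0 counts in all libraries. Reads that map to several places were not counted. The level of SPBPB10D8.04c thus rests largely on its other bases, and the 0 of SPBPB10D8.05c does not show that it was silent.

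Enzyme genes held the most abundant transcripts. The asparaginase gene SPBPB21E7.09 (75073 to 77625, plus strand, 1 exon), for an enzyme that releases ammonia from asparagine, had 80 and 91.4 CPM in set2Δ, against 4.54 and 2.93 CPM in wt2 (log2 fold change 4.50 ± 0.34, adjusted p = 7.5e-05). This was the smallest adjusted p of the segment. Its level was 17.6 and 30.8 CPM in cph1Δ and 24.8 and 34.1 CPM in cph2Δ, against 22 and 21.5 CPM in wt. Both cph2Δ libraries stood above both wt libraries, but neither strain passed (log2 fold change 0.15 ± 0.29, adjusted p = 0.785 in cph1Δ; log2 fold change 0.44 ± 0.29, adjusted p = 0.391 in cph2Δ). The gene aes1 (SPBPB21E7.07, 70156 to 71310, plus strand, 1 exon), of the phenazine biosynthesis family, had 201 and 206 CPM in set2Δ, against 7.07 and 3.97 CPM in wt2 (log2 fold change 5.18 ± 0.65, adjusted p = 0.00128). Other strains were uneven for aes1, with 29.4 and 36.9 CPM in cph1Δ and 20.4 and 108 CPM in cph2Δ, against 28.7 and 21.5 CPM in wt. Of the cph2Δ libraries only replicate 2 stood above both wt libraries. The enolase gene eno102 (SPBPB21E7.01c, 58136 to 59704, minus strand, 1 exon), for the glycolytic enzyme that makes phosphoenolpyruvate, stood at 5.44 and 7.72 CPM in set2Δ, against 0.505 and 0.523 CPM in wt2 (log2 fold change 3.65 ± 0.73, adjusted p = 0.0155). Its level was 0.582 and 2.4 CPM in cph1Δ and 0.496 and 0.508 CPM in cph2Δ, against 1.58 and 1.79 CPM in wt. The gene SPBPB21E7.02c (60553 to 61205, minus strand, 2 exons), of the phosphoglycerate mutase family, had 11.5 and 15.5 CPM in set2Δ, against 0.337 and 0.418 CPM in wt2 (log2 fold change 5.13 ± 0.94, adjusted p = 0.0106). In the remaining libraries it did not exceed 1.16 CPM, with 1.16 and 1.12 CPM in cph1Δ and 0.596 and 0 CPM in cph2Δ, against 0.396 and 0 CPM in wt. The arylsulfatase gene SPBPB10D8.02c (83229 to 85631, minus strand, 1 exon), for an enzyme that splits sulfate esters, had 4.05 and 7.41 CPM in set2Δ, against 0 and 0 CPM in wt2. With 0 counts in wt2 its level in set2Δ was at least 42.5-fold higher (adjusted p = 0.0141), the floor being 3 counts over the group. The uncharacterized coding gene SPBPB21E7.11 (61526 to 63086, minus strand, 3 exons) had 20 and 21 CPM in set2Δ, against 1.35 and 2.93 CPM in wt2 (log2 fold change 3.27 ± 0.61, adjusted p = 0.0109). It had 2.74 and 4.24 CPM in cph1Δ and 1.49 and 0.678 CPM in cph2Δ, against 5.25 and 1.9 CPM in wt.

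**Figure D3:**
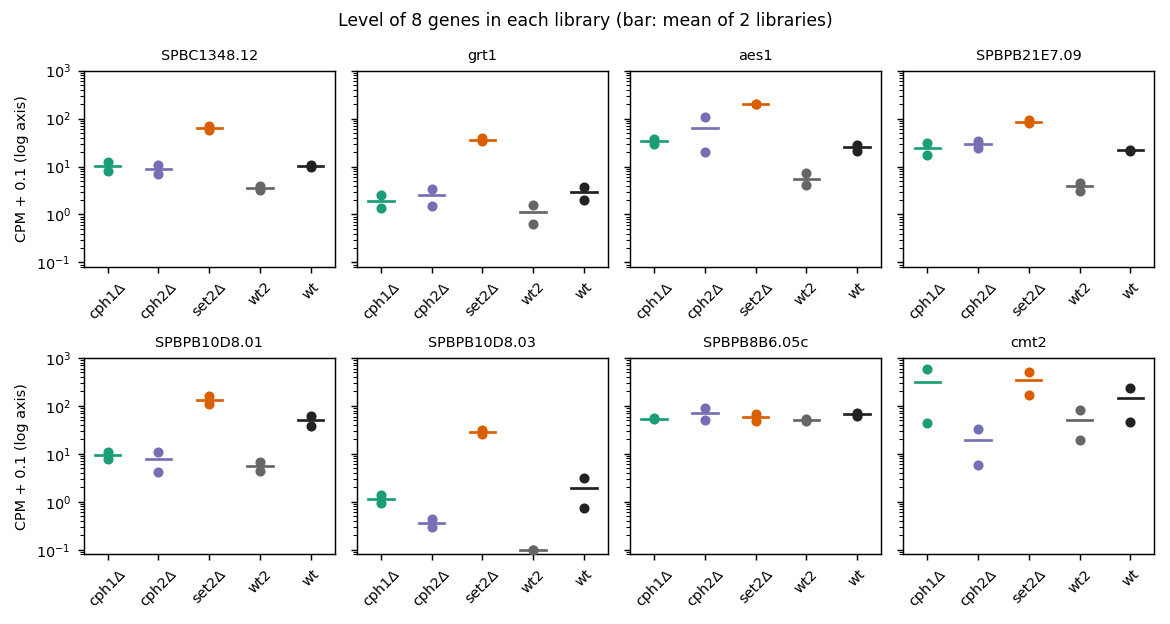
Level of 8 genes (CPM + 0.1, log axis) in each strain; points are libraries and bars the mean of 2. In SPBC1348.12, grt1, aes1, SPBPB21E7.09, SPBPB10D8.01 and SPBPB10D8.03 both set2Δ libraries stand above the 8 others, whereas SPBPB8B6.05c is at 48.1 to 88.2 CPM in all 10 and cmt2 varies within each strain.

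Some pseudogenes and non-coding RNAs were higher in set2Δ as well. Of 21 tested coding genes 15 were higher in set2Δ, as were 3 of 4 tested pseudogenes and 3 of 5 tested non-coding RNAs, with 5 more untested. Of all tested genes 4.32% were called higher, and the share within each class was not taken. The coding genes ftm6 and SPBC1348.05 and the non-coding RNA SPNCRNA.1303 were tested only through their counts in set2Δ. The transporter pseudogene SPBC1348.11 (33231 to 34780, plus strand, 3 exons), the first gene from the end with a mean above 10 CPM, had 92.9 and 74.9 CPM in set2Δ, against 0.421 and 0.209 CPM in wt2 (log2 fold change 7.97 ± 1.13, adjusted p = 0.00319). In the cph strains it stood at 3.24 and 4.24 CPM in cph1Δ and 3.97 and 0 CPM in cph2Δ, against 2.97 and 0.844 CPM in wt. SPBPB10D8.03 (87727 to 89029, plus strand, 1 exon), also a transporter pseudogene, had 26.4 and 30.6 CPM in set2Δ, against 0 and 0 CPM in wt2, at least 206-fold higher (adjusted p = 0.000529). Its counts in wt2 were 0 in both libraries, while it had 0.831 and 1.28 CPM in cph1Δ and 0.199 and 0.339 CPM in cph2Δ, against 3.07 and 0.633 CPM in wt. The pseudogene SPBPB21E7.08 (72081 to 73390, plus strand, 3 exons) had 1.58 and 1.83 CPM in set2Δ, against 0 and 0 CPM in wt2, at least 12.3-fold higher (adjusted p = 0.041). It had 0.0831 and 0.719 CPM in cph1Δ and 0.0993 and 0.339 CPM in cph2Δ, against 0.792 and 0.316 CPM in wt. The fourth, SPBPB21E7.06 (68355 to 68852, plus strand, 1 exon), narrowly missed the threshold, with 5.24 and 5.04 CPM in set2Δ, against 0.337 and 0 CPM in wt2 (log2 fold change 4.74 ± 1.22, adjusted p = 0.0542). It had 0 and 0.799 CPM in cph1Δ and 0.596 and 0.424 CPM in cph2Δ, against 0 and 0 CPM in wt. SPBPB21E7.06 and SPBPB21E7.08 passed the filter on low counts only with the set2Δ libraries included.

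Among the non-coding RNAs, SPNCRNA.1301 (50110 to 52193, plus strand, 1 exon) had 12.6 and 15.4 CPM in set2Δ, against 0.842 and 1.15 CPM in wt2 (log2 fold change 3.80 ± 0.60, adjusted p = 0.00535). It overlaps grt1 on the opposite strand, and it stood at 0.997 and 0.559 CPM in cph1Δ and 1.39 and 0.508 CPM in cph2Δ, against 1.39 and 0.844 CPM in wt. SPNCRNA.1304 (65390 to 66274, plus strand, 1 exon), which overlaps cmt2 in the same manner, had 10.6 and 11.8 CPM in set2Δ, against 0.505 and 0.209 CPM in wt2 (log2 fold change 4.89 ± 1.11, adjusted p = 0.0274). Like cmt2 it was uneven in the other strains, with 1.25 and 5.51 CPM in cph1Δ and 0.893 and 0.169 CPM in cph2Δ, against 2.67 and 0.211 CPM in wt. In all, 16 of the 45 genes share exon positions with another gene, and their values are uncertain. All but the pair SPNCRNA.1303 and SPNCRNA.289 share them with a gene on the opposite strand. Genes wholly within another gene's exon had 0 counts while that gene had counts, so reads at shared positions seem to be left out. Levels of the sharing genes are then too low. In eno102, SPBPB10D8.02c and SPBPB21E7.08 most of the exon length is shared, so their levels rest on a minor part of it. Of the 21 genes higher in set2Δ, 8 share positions in this way and 13 do not.

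Not every gene of the segment was higher in set2Δ. The asparaginase gene SPBPB8B6.05c (54322 to 55582, minus strand, 1 exon) had 67.4 and 48.8 CPM in set2Δ, against 48.1 and 52.4 CPM in wt2 (log2 fold change 0.21 ± 0.25, adjusted p = 0.719). It had 55.7 and 52.9 CPM in cph1Δ and 51.6 and 88.2 CPM in cph2Δ, against 61.8 and 71.6 CPM in wt. Directly beside it, fex2 (SPBPB8B6.06c, 55751 to 57113, minus strand, 1 exon), for a fluoride export channel of the plasma membrane, had 15.6 and 18.9 CPM in set2Δ, against 13.6 and 19.5 CPM in wt2 (log2 fold change 0.06 ± 0.30, adjusted p = 0.941). Its other levels were 13.1 and 10.1 CPM in cph1Δ and 12.6 and 13.6 CPM in cph2Δ, against 16 and 20.9 CPM in wt. The libraries of set2Δ and wt2 overlapped for both genes, although neighbours on either side were called higher, SPNCRNA.1301 before them and eno102 after them. Both genes were transcribed in every strain, and SPBPB8B6.05c was the third highest of the segment per length, at 47.5 CPM per kb of exon over the 10 libraries. Ahead of it stood cmt2 at 155 and aes1 at 57.4, and behind it SPBC1348.12 at 16.9 and SPBPB10D8.01 at 16.7. Of fex2, 75.7% of the bases have a near-identical copy in fex1 at the left end of chromosome I.

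The catechol O-methyltransferase gene cmt2 (SPBPB21E7.04c, 64487 to 65620, minus strand, 1 exon) varied several-fold within every strain. It had 520 and 171 CPM in set2Δ, against 80.4 and 19.1 CPM in wt2 (log2 fold change 2.79 ± 1.19, adjusted p = 0.235). In the other strains it stood at 43.5 and 595 CPM in cph1Δ and 33.4 and 5.76 CPM in cph2Δ, against 240 and 46.5 CPM in wt. Its 2 libraries differed 13.7-fold in cph1Δ, 5.80-fold in cph2Δ, 3.04-fold in set2Δ, 4.21-fold in wt2 and 5.16-fold in wt. This gene alone held 74.9% of the segment's summed CPM in cph1Δ replicate 2 and 2.06% in cph2Δ replicate 2. The neighbouring SPNCRNA.1303 was uneven in cph1Δ as well, with 0.582 and 10.3 CPM in cph1Δ, against 0.891 and 0.527 CPM in wt.

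**Figure D4:**
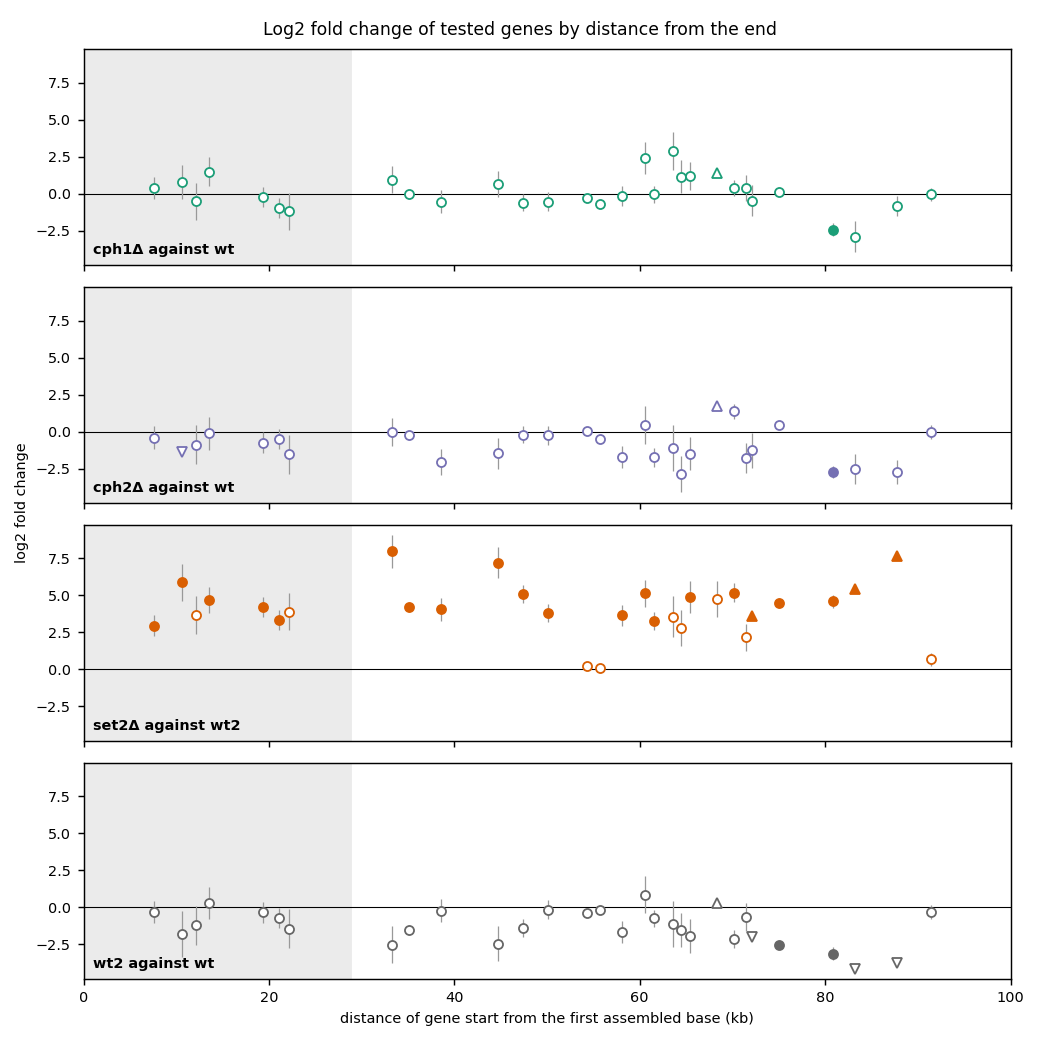
Log2 fold change ± approximate standard error of the 30 tested genes against the distance of their start from the first assembled base (kb), with 1 panel per comparison. Filled points passed the test, triangles are bounds for genes with 0 counts in 1 group (pointing up where higher, down where lower), and grey shading marks the genes up to 28.8 kb in near-identical copies; 21 genes are filled in set2Δ against wt2, 1 in each cph comparison and 2 in wt2 against wt.

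The sequences upstream of 3 genes that were higher in set2Δ and of the neighbouring pair that was not are shown because these genes lie within one segment and did not all differ alike. They are the 250 bases before the RefSeq start, read 5′ to 3′ on the gene's strand (ASM294v3), and lie at chrII:34862-35111 on the plus strand for SPBC1348.12, chrII:69882-70131 on the plus strand for aes1, chrII:46832-47081 on the minus strand for SPBPB8B6.02c, chrII:55568-55817 on the minus strand for SPBPB8B6.05c and chrII:57121-57370 on the minus strand for fex2. Capitals mark TATAAA on either strand (TTTATA is its reverse complement).
SPBC1348.12: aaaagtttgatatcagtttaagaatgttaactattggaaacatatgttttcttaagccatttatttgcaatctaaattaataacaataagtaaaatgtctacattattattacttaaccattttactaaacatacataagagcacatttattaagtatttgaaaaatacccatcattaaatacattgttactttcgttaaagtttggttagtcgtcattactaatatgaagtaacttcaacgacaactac
aes1: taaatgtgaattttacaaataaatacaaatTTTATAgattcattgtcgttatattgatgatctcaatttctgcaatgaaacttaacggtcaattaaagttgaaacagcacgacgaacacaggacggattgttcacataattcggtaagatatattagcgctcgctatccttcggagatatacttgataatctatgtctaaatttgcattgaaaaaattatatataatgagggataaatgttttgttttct
SPBPB8B6.02c: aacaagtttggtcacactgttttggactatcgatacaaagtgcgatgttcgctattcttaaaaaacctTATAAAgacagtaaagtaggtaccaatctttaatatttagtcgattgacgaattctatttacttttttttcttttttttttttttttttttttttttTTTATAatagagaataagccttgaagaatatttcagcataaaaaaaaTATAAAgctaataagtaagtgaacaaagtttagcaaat
SPBPB8B6.05c: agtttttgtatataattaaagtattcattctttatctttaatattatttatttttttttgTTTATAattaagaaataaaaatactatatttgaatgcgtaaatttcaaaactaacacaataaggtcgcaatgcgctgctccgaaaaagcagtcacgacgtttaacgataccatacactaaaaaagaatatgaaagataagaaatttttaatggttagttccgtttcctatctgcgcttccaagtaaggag
fex2: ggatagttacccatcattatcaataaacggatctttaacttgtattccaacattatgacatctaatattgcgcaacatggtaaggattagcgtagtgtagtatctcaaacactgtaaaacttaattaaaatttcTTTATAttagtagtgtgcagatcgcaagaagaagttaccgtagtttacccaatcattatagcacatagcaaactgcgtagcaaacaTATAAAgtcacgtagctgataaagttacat
TATAAA occurred in all of these windows but that of SPBC1348.12, with 3 matches in SPBPB8B6.02c, 2 in fex2 and 1 each in aes1 and SPBPB8B6.05c. Over coding members with a RefSeq start it was found in 20 of 31 windows (64.5%), against 2270 of 5112 windows of the genome (44.4%). The share of A and T was 75.6% in SPBC1348.12, 70.8% in aes1, 75.2% in SPBPB8B6.02c, 72.8% in SPBPB8B6.05c and 66.8% in fex2, against a median of 68.0% over all windows. The letters TGACGT, the core recognised by Atf1 and related factors, on either strand, were in 0 of the 31 windows and in 5.5% of all windows. Matches are descriptions of sequence and not sites of binding. Flat and higher genes both held TATAAA in these examples.

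Few genes of the segment differed between cph1Δ and wt. Of the 30 tested genes, 0 were higher and 1 was lower in cph1Δ than in wt, where 5.31% of all tested genes were called higher and 0.316% lower. The median log2 fold change was -0.04, against 0.02 over all tested genes. Without wt replicate 1 it was 0.67 and without cph1Δ replicate 1 it was 0.31, so its sign rested on single libraries. At an unadjusted p under 0.05, 2 genes were higher and 3 lower, where 1180 of all 5067 tested genes passed in either direction. DESeq2 called 0 higher and 1 lower, where it called 326 higher and 141 lower among all 5067. Both cph1Δ libraries stood above both wt libraries for 4 genes and below for 4, against 28.8% and 23.1% of all tested genes. Summed without cmt2, the genes had 178 and 199 CPM in cph1Δ, against 256 and 214 CPM in wt.

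Deletion of cph2 gave a like count. In cph2Δ 0 genes were higher and 1 was lower than in wt, where 5.21% of all tested genes were called higher and 0.908% lower. The median was -0.82, against 0.01 over all tested genes, and the cph2Δ libraries were unequal, at -0.24 in replicate 1 and -1.23 in replicate 2. Without cph2Δ replicate 1 the median was -2.04, against 0 over all tested genes. Unadjusted, 2 genes were higher and 7 lower at p under 0.05, where 1192 of all 5067 tested genes passed in either direction. DESeq2 called 0 higher and 2 lower, where it called 339 higher and 200 lower among all 5067. For 2 genes both cph2Δ libraries were above both wt libraries and for 7 below, against 27.9% and 22% of all tested genes. Sums without cmt2 were 166 and 273 CPM in cph2Δ, against 256 and 214 CPM in wt, and the 108 CPM of aes1 made up much of replicate 2.

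The gene called in both was SPBPB10D8.01, the cysteine transporter gene at 80.9 kb. It stood at 10.8 and 7.83 CPM in cph1Δ and 11 and 4.07 CPM in cph2Δ, against 61.7 and 37.4 CPM in wt. All 4 libraries of cph1Δ and cph2Δ were thus below both wt libraries. The log2 fold change was -2.41 ± 0.42 in cph1Δ (adjusted p = 0.00709) and -2.73 ± 0.43 in cph2Δ (adjusted p = 0.00433). Without cph1Δ replicate 2 the first of these missed the threshold (adjusted p = 0.108). Its overlapping neighbour SPBPB10D8.02c had 0.249 and 0.4 CPM in cph1Δ and 0.893 and 0 CPM in cph2Δ, against 3.07 and 1.9 CPM in wt, and SPBPB10D8.03 farther in had 0.831 and 1.28 CPM in cph1Δ and 0.199 and 0.339 CPM in cph2Δ, against 3.07 and 0.633 CPM in wt. Neither passed (adjusted p = 0.136 and 0.481 in cph1Δ, 0.17 and 0.074 in cph2Δ). Both comparisons use the same wt libraries, and so does that of wt2 with wt, in which SPBPB10D8.01 was lower as well.

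Between cph1Δ and cph2Δ directly, 0 of the 30 genes passed, where 0.0197% of all tested genes were called higher and 0.0395% lower, and the median difference was 0.67. At an unadjusted p under 0.05, 6 genes were higher in cph1Δ and 0 lower, and DESeq2 called 0. For these counts the share over all tested genes was not taken. With 2 libraries each, this does not show that the strains were alike. Genes passed only when cph2Δ replicate 1 was left out.

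The effects of the deletions differed by a test of the difference itself. The cph1Δ effect (against wt) was lower than the set2Δ effect (against wt2) for 8 of the 30 genes, where 0.75% of all tested genes were so called, and the cph2Δ effect was lower for 14, where 1.14% were. It was higher for 0 genes with either strain, with 0 at an unadjusted p under 0.05, where 0.118% of all tested genes were called higher in both. DESeq2 called 12 and 18 genes in either direction, with no share over all tested genes taken. For SPBPB21E7.09 the difference was -4.35 ± 0.44 with cph1Δ (adjusted p = 0.000519) and -4.07 ± 0.44 with cph2Δ (adjusted p = 0.000748). For SPBC1348.12 it was -4.24 ± 0.45 (adjusted p = 0.000806) and -4.46 ± 0.46 (adjusted p = 0.000514) in the same order. The gene called in opposite directions, higher in set2Δ and lower in both cph strains, was SPBPB10D8.01, with -7.00 ± 0.62 (adjusted p = 0.000197) for cph1Δ and -7.32 ± 0.63 (adjusted p = 0.000186) for cph2Δ. Each effect was taken against its own parent, so a difference between the parents enters these values. Most fits with a single library left out called fewer genes, for cph1Δ as for cph2Δ, with no share over all tested genes taken.

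The parents differed at 2 genes of this end. In wt2 the tested genes had a median log2 fold change of -1.31 against wt, where all tested genes had 0.01, and 27 of 30 were negative. Only 2 passed as lower and 0 as higher, where 0.138% of all tested genes were called lower and 0.0592% higher. At an unadjusted p under 0.05, 9 were lower and 0 higher, where 368 of all 5067 tested genes passed in either direction. DESeq2 called 5 lower and 0 higher, where it called 55 lower and 8 higher among all 5067. The called genes were SPBPB21E7.09, with 4.54 and 2.93 CPM in wt2, against 22.0 and 21.5 CPM in wt (log2 fold change -2.53 ± 0.33, adjusted p = 0.00803), and SPBPB10D8.01, with 6.73 and 4.29 CPM in wt2, against 61.7 and 37.4 CPM in wt (log2 fold change -3.16 ± 0.44, adjusted p = 0.0111). Both lost the call without wt2 replicate 2, and when only the wt2 and wt libraries were fitted. Without wt replicate 1, SPBPB21E7.09 kept the call, SPBPB10D8.01 lost it and the median was -0.42.

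Several uncalled genes had both wt2 libraries below both wt libraries. For aes1 the levels were 7.07 and 3.97 CPM in wt2, against 28.7 and 21.5 CPM in wt (log2 fold change -2.17 ± 0.60, adjusted p = 0.279), and for SPBC1348.12 they were 3.20 and 3.76 CPM in wt2, against 10.9 and 9.70 CPM in wt (log2 fold change -1.57 ± 0.33, adjusted p = 0.112). Genes at 0 counts in both wt2 libraries but not in wt included SPBPB10D8.02c, SPBPB10D8.03 and SPBPB21E7.08. In all, 13 of the 30 genes had both wt2 libraries below both wt libraries and 0 had both above, against 18.1% and 19.7% of all tested genes. The 2 parents also differ in the alleles the labels give, ura4-d18 among them, and strain and any difference in culture cannot be told apart. Of the 21 genes higher in set2Δ than in wt2, each of the 21 also had both set2Δ libraries above both wt libraries. These genes were picked by their high level in set2Δ, so this count is no test. Among them ftm6, SPBC1348.05 and SPBPB21E7.08 passed the filter only with the set2Δ libraries, and the share over all tested genes was not taken.

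Other ends were also higher in set2Δ. Among tested genes within 100 kb of an end, 21 of 30 were higher here (70%), against 16 of 38 at the left end of chromosome I (42.1%), 18 of 40 at its right end (45%) and 12 of 29 at the right end of chromosome II (41.4%). The median was 4.21 here, against 2.59, 3.56 and 2.32 at these ends. The difference between ends was not tested, and the ends share near-identical genes. These counts use the filter with the set2Δ libraries included, which 5 of the 30 genes here passed only with them. On the 8 other libraries alone 18 of 25 genes were higher here, and no such count was made for the other ends. In cph2Δ, medians were -1.25, -1.08 and -0.55 at the other ends in the same order, and in wt2 against wt they were -0.62, -0.65 and -0.82. In cph1Δ they were -0.30, -0.19 and -0.03.

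**Figure D5:**
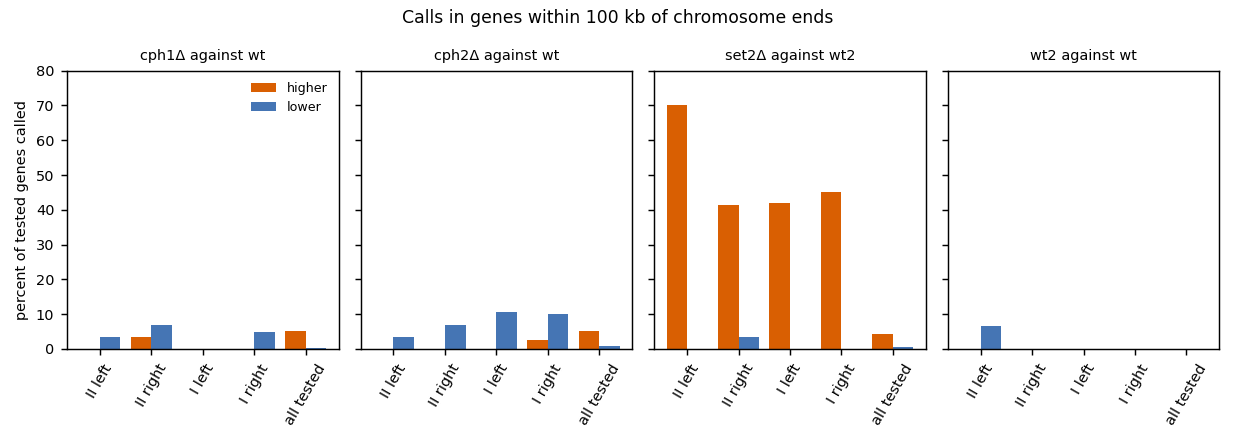
Percent of tested genes within 100 kb of each end of chromosomes I and II, and of all tested genes, called higher (orange) or lower (blue) in each comparison. In set2Δ against wt2 the bars for higher genes reach 70% at the left end of chromosome II and 41.4% to 45% at the 3 other ends, against 4.32% of all tested genes. The tested genes include those that passed the filter only with the set2Δ libraries.

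Genes of the machinery at chromosome ends were examined as lists. Of all tested genes, 5.31% were called higher and 0.316% lower in cph1Δ, 5.21% and 0.908% in cph2Δ, 4.32% and 0.572% in set2Δ, and 0.0592% and 0.138% in wt2 against wt. Of 9 telomere and shelterin genes, 4 were higher in cph1Δ, 5 in cph2Δ and 2 in set2Δ, and 0 passed in wt2 against wt, with medians of 0.73, 0.80, 0.44 and 0.13. Those in set2Δ were taz1 (0.85 ± 0.20, adjusted p = 0.0338), which binds the telomere duplex, and pot1 (0.79 ± 0.19, adjusted p = 0.037), which binds its single strand. Among 17 tested genes of heterochromatin at chromosome ends, 4 were higher in cph1Δ and 3 in cph2Δ, and in set2Δ 3 were higher and set2 itself was lower. The HP1 protein gene chp2 (1.06 ± 0.22, adjusted p = 0.0167) was among those higher in set2Δ. Of 12 tested Clr6 deacetylase genes, 1 was higher and 1, the deleted gene, lower in each of cph1Δ and cph2Δ, and pst1 was higher in set2Δ (1.12 ± 0.27, adjusted p = 0.0379).

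Stress and starvation lists were measured beside the set2Δ result, where 4.32% of all tested genes were called higher. Of 12 stress genes, the catalase gene ctt1 (1.15 ± 0.26, adjusted p = 0.0261) and the small heat shock gene hsp16 (1.57 ± 0.40, adjusted p = 0.0466) were higher in set2Δ, with a median of -0.07 over the list. Of 9 mating and nitrogen starvation genes, isp4 (1.70 ± 0.31, adjusted p = 0.0102) and isp5 (2.12 ± 0.40, adjusted p = 0.0115) were higher, with a median of 0.29. In cph1Δ, where 5.31% of all tested genes were called higher, isp6 and isp5 were higher, and 0 of the 9 passed in cph2Δ. Their part in the levels near the end was not tested.

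The remaining genes of the segment had few or no counts. SPBPB21E7.05 had 0.593 and 0.458 CPM in set2Δ and 0 counts in the 8 other libraries, and fah1 had 2.47 and 0.688 CPM in set2Δ, against 0.252 and 0.209 CPM in wt2. SPBPB21E7.10 and SPNCRNA.1306 reached at most 0.24 and 0.611 CPM in any library. The non-coding RNA SPNCRNA.1305 had 5.24 and 4.89 CPM in set2Δ, against 1.18 and 1.05 CPM in wt2 (adjusted p = 0.233), and SPNCRNA.1303 had 3.46 and 4.28 CPM in set2Δ, against 0.589 and 0 CPM in wt2 (adjusted p = 0.194). SPNCRNA.1302, SPNCRNA.289 and SPNCRNA.1307 had 0 counts throughout. They lie wholly within exons of eno102, SPNCRNA.1303 and SPBPB10D8.02c, which had 248, 255 and 204 counts over all libraries. A 0 in these nested genes is thus no measure of their transcription. The low counts of fah1 and SPBPB21E7.10, which share exon positions with grt1 and SPBPB21E7.11, are uncertain likewise. At the inner border, SPBPB10D8.06c (97242 to 98534) was the last gene inside the limit, with 2 counts in wt replicate 2 and 0 elsewhere. A copy at 100% identity in SPBPB10D8.04c covers its whole RefSeq span, so these counts do not show that it was silent. The next gene, SPBPB10D8.07c (99860 to 101411), lay just outside and had 1 count, in set2Δ replicate 2.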

How the data were processed

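The deposited table holds raw read counts per gene; per the file headers, the authors counted exons summed by gene with featureCounts, with no option for strand, paired ends or multi-mapping reads. Per the submitters' processing notes, STAR 2.7.10a, SAMtools 1.16.1, Picard, Subread 2.0.1, DESeq2 1.36.0, edgeR 3.38.4 and build ASM294v2 were used. Of the counts from 1 to 20 in genes sharing no exon position, 63.3% were even; where both mates of a pair are counted, counting intervals are too narrow.

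Counts were analysed in R 4.3.3 with edgeR 4.0.16 (limma 3.58.1): filterByExpr on the groups, TMM scaling, and 1 fit of the 5 groups (residual df 5, biological coefficient of variation 0.211) with quasi-likelihood tests, adjusted by Benjamini-Hochberg over 5067 genes at 0.05. Where a group had 0 counts, folds are bounds that set it to 3 counts in sum, and where it had 1 to 3, a 95% counting interval is given. Both cover counting error only. The code was checked on simulated counts.

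The genes named with every library's value are those past the test in at least 1 of 4 comparisons, the 5 highest per length, the nearest to the end, the first with a mean of 10 CPM, and those at 0 counts in 1 group and at 10 or more in both libraries of another. Gene lists were described by counts and medians. The segment and all lists were chosen with earlier results of these data known. Near-identical copies of the RefSeq gene spans were found with BLAST 2.17.0 in the RefSeq genome ASM294v3 (98% identity, 100 bases). RefSeq matched 44 of the 45 genes and gave 10 of them a symbol. Alternatives were RLE scaling, no filter, DESeq2 1.42.0, a replicate block, only the groups compared, and each library left out; a crossed block was added after seeing the data.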

Additional observations from a re-analysis of the deposited data

Results flagged for a closer look

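A test of the difference between 2 deletion effects, each against its own parent, singled out genes whose cph1Δ or cph2Δ effect was below the set2Δ effect (edgeR quasi-likelihood contrasts, adjusted p under 0.05). Values are the cph effect minus the set2Δ effect on the log2 scale. For cph1Δ they were -4.24 in SPBC1348.12, -5.70 in grt1, -4.32 in SPNCRNA.1301, -4.78 in aes1, -4.35 in SPBPB21E7.09, -7.00 in SPBPB10D8.01, -11.89 in SPBPB10D8.02c and -12.11 in SPBPB10D8.03. The cph2Δ values of the same genes were -4.46 in SPBC1348.12, -5.32 in grt1, -4.06 in SPNCRNA.1301, -3.82 in aes1, -4.07 in SPBPB21E7.09, -7.32 in SPBPB10D8.01, -11.50 in SPBPB10D8.02c and -14.02 in SPBPB10D8.03. For cph2Δ the difference also passed for the uncharacterized gene SPBC1348.07 (-4.96), the pseudogene SPBC1348.11 (-7.97), the hexose transporter gene ght7 (-6.10), the urea transporter gene SPBPB8B6.02c (-8.68), the enolase gene eno102 (-5.38) and SPBPB21E7.11 (-5.00). The cph1Δ values of these 6 genes had the same sign and missed the threshold, at -4.43 in SPBC1348.07 (adjusted p = 0.0659), -7.01 in SPBC1348.11 (adjusted p = 0.0556), -4.57 in ght7 (adjusted p = 0.0911), -6.53 in SPBPB8B6.02c (adjusted p = 0.0592), -3.83 in eno102 (adjusted p = 0.146) and -3.31 in SPBPB21E7.11 (adjusted p = 0.132). With the replicate block, and with DESeq2, 12 genes passed for cph1Δ, but the share over all tested genes was not taken. Between cph1Δ and cph2Δ themselves 0 genes passed in edgeR or DESeq2, with 6 at an unadjusted p under 0.05, again with no such share taken. The values of SPBPB10D8.02c and SPBPB10D8.03 rest on 0 counts in both wt2 libraries, depend on the prior count of the fit and are no bounds.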

How the results depend on the processing

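RLE scaling changed no count of calls by more than 1.5 times. Without a filter on low counts, 2 genes were lower in cph2Δ and 4 in wt2, where 89 and 26 of all 5691 genes were. The cph1Δ and set2Δ effects differed for 13, with no share over all genes taken, and the set2Δ median was 3.89. DESeq2 gave 2 lower in cph2Δ and 5 lower in wt2, where it called 200 and 55 of all 5067 tested genes lower. Fitting only the wt2 and wt libraries gave 0 lower. Leaving out 1 library at a time, with a lone library assumed to vary like the other groups, gave these ranges: in cph1Δ 0 to 1 lower and a median of -0.25 to 0.67; in cph2Δ 0 to 1 higher, 1 to 3 lower and a median of -2.04 to -0.19; in set2Δ 9 to 12 higher and a median of 4.10 to 4.91; in wt2 against wt 0 to 3 lower and a median of -1.64 to -0.42. It gave 0 to 2 between cph1Δ and cph2Δ, 5 to 9 for the cph1Δ and set2Δ effects, and 4 to 15 for the cph2Δ and set2Δ effects. No direction was reversed for a called gene. Of the 21 set2Δ calls, 8 held in all 9 settings (SPBC1348.11, SPBC1348.12, SPBPB8B6.02c, grt1, aes1, SPBPB21E7.09, SPBPB10D8.01 and SPBPB10D8.03), all 8 with no near-identical copy, and 13 were lost when a library was left out. The cause was not tested beyond the fewer samples of those fits. Replicate numbers were not shown to pair the samples: deviations of same-numbered libraries correlated at -0.41 between cph1Δ and wt, 0.23 between cph2Δ and wt, 0.26 between set2Δ and wt2, and 0.04 between wt2 and wt. A fit with the replicate block called 19 genes higher in set2Δ (ftm5 and SPBPB21E7.08 lost), 1 lower in cph1Δ, 1 lower in cph2Δ and 2 lower in wt2. Among all 5067 tested genes it called 203 higher in set2Δ, and 13, 41 and 10 lower in cph1Δ, cph2Δ and wt2. With it 12 and 13 genes differed between the cph1Δ or cph2Δ and the set2Δ effects, with no share over all tested genes taken. The crossed block, pairing cph1Δ and wt libraries of unlike number, called 0 higher and 1 lower. With 2 libraries per group and few counts, changes of the weakest genes were not detectable at this depth.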
